A study of Mus musculus with 8 samples.

Results

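Lgr5-positive cells were set against the Lgr5-negative cells sorted beside them from the same vismodegib-treated mice. The comparison was chosen by treatment label and sorted population, and it took 4 of the 8 arrays of the series, 2 Lgr5+Lrig1+ arrays and 2 Lrg5-Lrig1+ arrays (with Lgr5 spelled as the titles give it). Each mouse gave 1 array of each population, so n = 2 mice per group. RNA of these sorted cells was amplified as cDNA and read on Affymetrix arrays, and the other 4 arrays hold the same populations of 2 untreated mice. The series title ties a slow cycling Lgr5 population to basal cell carcinoma relapse, and the comparison asks what distinguished Lgr5-positive cells from their neighbours while the drug was given.

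The groups were Lgr5-positive cells of vismodegib mice, Lgr5-negative cells of vismodegib mice, Lgr5-positive cells of untreated mice and Lgr5-negative cells of untreated mice. All 8 arrays came from K14-CreER/Ptch1cKO animals, in which an inducible Cre recombinase under a keratin 14 promoter deletes Ptch1 in keratin 14-expressing epithelium, so the untreated mice carried the deletion too. The sorting protocol also names an Lgr5-GFP reporter, which the genotype label does not list. Cells came from thermolysin-separated epidermis of back skin that bore tumours and drug-tolerant lesions, and they were sorted as living single cells with surface Lrig1. The labels name no gate against leukocytes. The sources used here give no age, sex, vismodegib dose or vismodegib duration.

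Basal cell carcinoma arises in skin when Hedgehog signalling is left on. Loss of Patched 1 frees Smoothened, which activates the Gli transcription factors, and vismodegib binds and inhibits Smoothened. Lgr5, a receptor for R-spondins that strengthens Wnt signals, marks stem cells of the lower bulge and outer root sheath of the hair follicle, and Lrig1, a feedback inhibitor of EGF family receptors, marks progenitors of the upper follicle.

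The sort was checked first. Lgr5 had log2 signals of 9.44 and 10.03 in the Lgr5-positive arrays of vismodegib mice 1 and 2, against 5.46 and 4.83 in the Lgr5-negative arrays. The difference of 4.59, about 24.1-fold, was set by the sort and is a description. In untreated mice Lgr5 averaged 10.99 in Lgr5-positive cells, against 8.52 and 8.40 in the 2 arrays of Lgr5-negative cells. The Lgr5-negative arrays thus read Lgr5 far higher in untreated than in vismodegib mice, and the part of this in the comparisons between treatments was not tested. Lrig1, on which both populations were gated, had 11.34 and 11.41 in Lgr5-positive cells, against 10.95 and 11.38 in Lgr5-negative cells. Krt14, the keratin of basal epithelium whose promoter drives the Cre, had 12.51 and 12.65 in Lgr5-positive cells, against 12.53 and 12.53 in Lgr5-negative cells. Neither Lrig1 (0.21 ± 0.17, log2 difference ± SE) nor Krt14 (0.05 ± 0.12) passed the test. Gli1, the Hedgehog output factor, had 6.42 and 6.39 in Lgr5-positive cells, against 6.56 and 6.37 in Lgr5-negative cells. Its groups overlapped, and all 4 values lay below the 8.75 to 10.13 of the untreated arrays. Ptch1 probe sets do not check the genotype, because every group was deleted and the labels do not name the exons removed.

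After vismodegib, 68 of 14403 genes tested differed between the populations at an adjusted p under 0.05, a share of 0.472%. Genes were tested with limma on all 8 arrays, and differences are Lgr5-positive minus Lgr5-negative on the log2 scale with their standard error. Lgr5-positive cells were higher in 49 genes (0.340%) and lower in 19 (0.132%), and 58 of the 68 differed at least 2-fold. An unadjusted p under 0.05 was reached by 1749 genes, and the median difference over all genes was −0.01. The 2 arrays of each population did not overlap for 43.7% of all genes, 21.2% higher and 22.5% lower, so non-overlap alone marks no gene here. An exact permutation test of 2 arrays against 2 cannot go below p = 0.333, and a call therefore rests on the spread that limma pools over groups and genes. With the mouse as a block, since both arrays of a pair came from the same animal, 105 genes passed, 74 higher and 31 lower, and 55 of the 68 were among them.

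The number of calls moved with single arrays. In the vismodegib mice it was 18 without the Lgr5-negative array of mouse 1, 107 without that of mouse 2, 30 without the Lgr5-positive array of mouse 1 and 29 without that of mouse 2. It was 20 without either untreated Lgr5-negative array and 65 without either untreated Lgr5-positive array. The 11 genes Lgr5, Abi3bp, Pf4, Ccl6, Krt75, Sparc, Wif1, Fras1, Il31ra, Trib2 and Il1r2 passed whichever array was left out, and the other 57 lost the call without at least 1 array. Every one of the 68 kept its direction when any single array was left out. The 3′ minus 5′ signal of Gapdh control probe sets, a measure of RNA quality, was −0.09 and 0.01 in the Lgr5-positive arrays of mice 1 and 2, against −0.23 and −0.14 in the Lgr5-negative arrays. That of actin was −0.45 and −0.40 in the Lgr5-positive arrays, against −0.49 and −0.50 in the Lgr5-negative arrays. Both controls were thus higher in Lgr5-positive cells in both mice, and their part in the differences between populations was not tested. In bulk RNA of sorted cells, fewer cells of a type and less RNA per cell cannot be told apart, here and below.

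**Figure D1:**
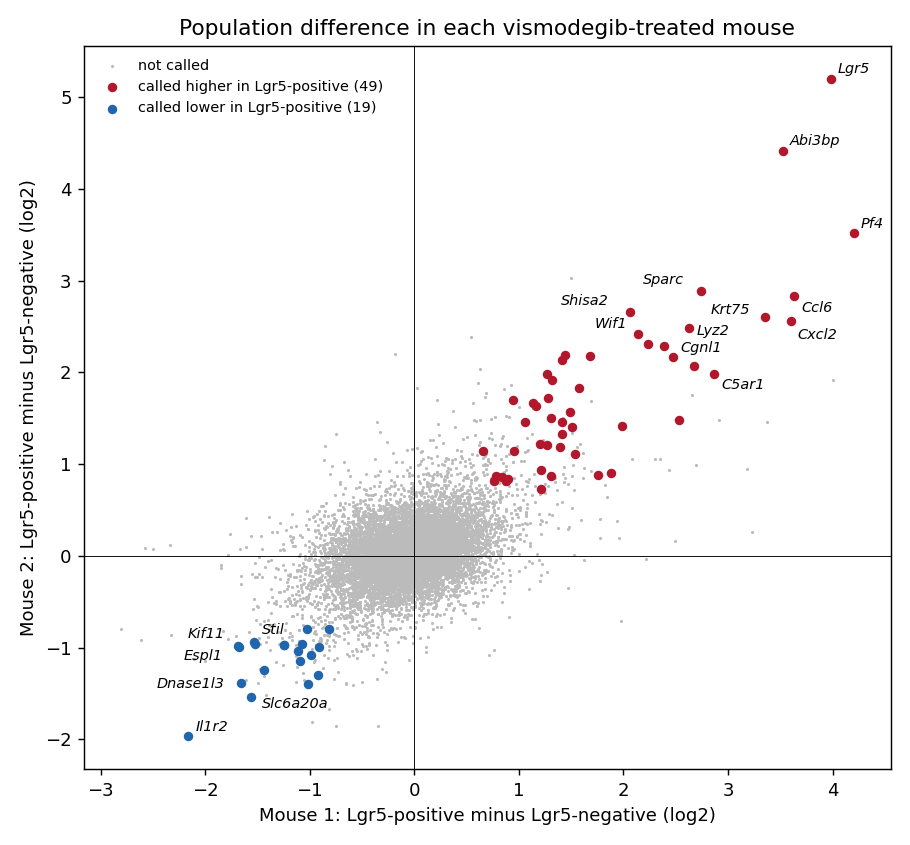
The population difference (Lgr5-positive minus Lgr5-negative, log2) in vismodegib mouse 1 on the x axis is set against that in vismodegib mouse 2 on the y axis, 1 point a gene, with genes called higher in red and genes called lower in blue. The 49 higher genes lie at the upper right, where Lgr5, Abi3bp and Pf4 stand farthest out, and the 19 lower genes lie at the lower left with Il1r2 farthest.

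Hair follicle and outer root sheath genes were among the largest increases in Lgr5-positive cells. Krt75, a keratin of the companion layer that lines the outer root sheath, had 7.76 and 7.42 in Lgr5-positive cells, against 4.41 and 4.82 in Lgr5-negative cells. Wif1, a secreted inhibitor that binds Wnt ligands, had 7.71 and 8.28 in Lgr5-positive cells, against 5.57 and 5.86 in Lgr5-negative cells. Ltbp2, a latent TGF-beta binding protein of the matrix, had 6.97 and 7.60 in Lgr5-positive cells, against 5.29 and 5.42 in Lgr5-negative cells. In each of the 3 genes both Lgr5-positive arrays lay above both Lgr5-negative ones. Krt75 was higher by 2.98 ± 0.25 (adjusted p = 0.00638). Its Lgr5-negative arrays were at or below 4.85, the 25th percentile of all values below which a signal was taken as dim, so Krt75 was at least 6.67-fold higher. Wif1 was higher by 2.28 ± 0.20 (adjusted p = 0.00638) and Ltbp2 by 1.93 ± 0.21 (adjusted p = 0.0158, but 0.101 without the Lgr5-negative array of mouse 1).

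Shisa2 and Krtap17-1 showed the same pattern. Shisa2, a membrane protein of the Shisa family, had 7.89 and 8.46 in Lgr5-positive cells, against 5.83 and 5.80 in Lgr5-negative cells. It was higher by 2.36 ± 0.22 (adjusted p = 0.00699, or 0.0534 without the Lgr5-negative array of mouse 1). Krtap17-1, a keratin-associated protein of the hair shaft, had 7.34 and 7.22 in Lgr5-positive cells, against 4.95 and 4.93 in Lgr5-negative cells. It was higher by 2.34 ± 0.25 (adjusted p = 0.0158, or 0.096 without the Lgr5-positive array of mouse 1). Foxp1, a transcription factor that in mouse bulge stem cells helps to hold quiescence, was higher by 0.90 ± 0.14 (adjusted p = 0.0479), while its 6 other probe sets gave 1.19 to 1.63. The Foxp1 call was lost whichever array was left out and with the mouse block (adjusted p = 0.069).

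Of 22 tested genes of the bulge and outer root sheath, 3 were called higher (Lgr5, Wif1 and Ltbp2) and 0 lower, where 0.340% and 0.132% of all genes were called. The median was 0.29 against −0.01 over all genes. The list holds the sort gene. Its groups did not overlap upward in 13 genes and downward in 1, where the shares over all genes were 21.2% upward and 22.5% downward. Lhx2, a LIM transcription factor that maintains follicle stem cells, had 7.41 and 7.86 in Lgr5-positive cells, against 6.63 and 6.35 in Lgr5-negative cells, and its 1.14 ± 0.18 missed the threshold (adjusted p = 0.0591). The bulge genes Sox9 (0.12), Nfatc1 (0.06), Krt15 (−0.08) and Tbx1 (−0.28) differed little. None of these 4 passed the test. The companion and inner root sheath list had Krt75 as its only call among 14 genes, where 0.472% of all genes were called, with a median of −0.07.

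**Figure D2:**
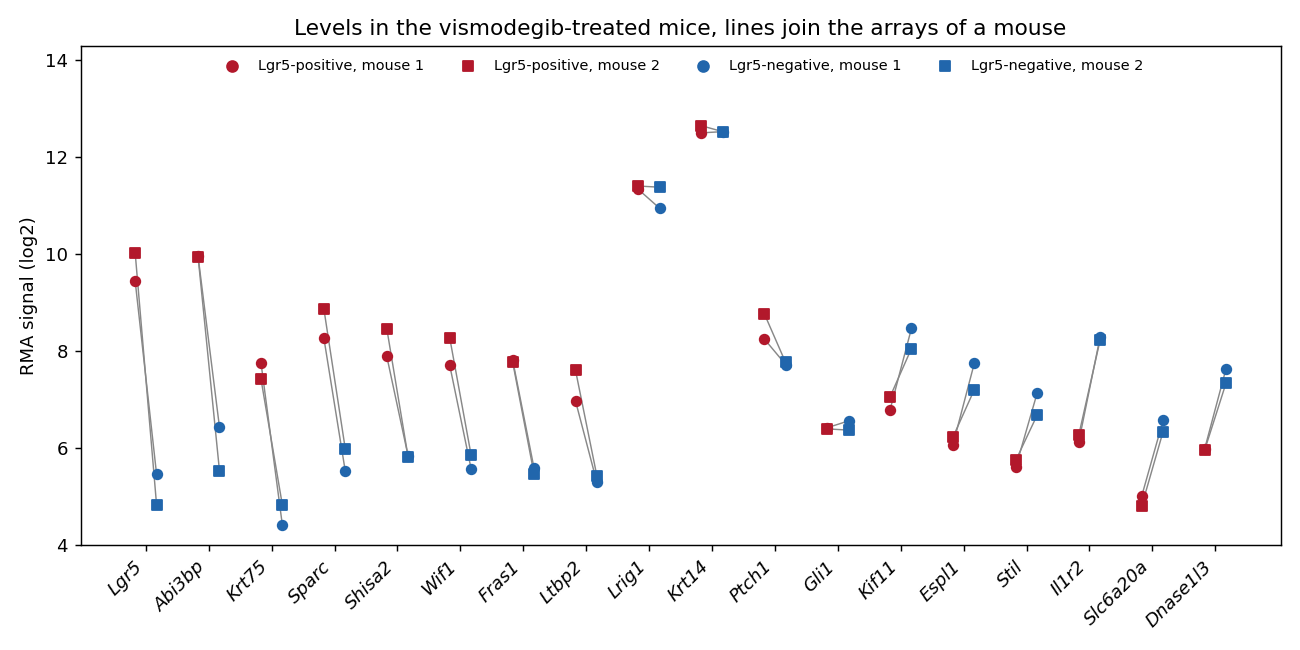
Log2 signal in the 4 vismodegib arrays for 18 genes, with Lgr5-positive arrays in red to the left of Lgr5-negative arrays in blue, circles for mouse 1, squares for mouse 2 and lines that join the arrays of a mouse. Lines fall steeply to the right from Lgr5 to Ltbp2, run nearly level for Lrig1, Krt14 and Gli1, and climb from Kif11 to Dnase1l3.

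Matrix and junction genes formed the next group. Abi3bp, an extracellular matrix protein, had 9.95 and 9.95 in Lgr5-positive cells, against 6.43 and 5.53 in Lgr5-negative cells, a difference of 3.97 ± 0.35 (adjusted p = 0.00638). Its probe set belongs to a class that may cross-hybridise with related transcripts. The other Abi3bp probe set, which is not of that class and was dim in 1 array, gave 3.70. Sparc, a collagen-binding matricellular protein, had 8.26 and 8.87 in Lgr5-positive cells, against 5.52 and 5.98 in Lgr5-negative cells. Fras1, which anchors epithelium to the basement membrane, had 7.82 and 7.78 in Lgr5-positive cells, against 5.59 and 5.47 in Lgr5-negative cells. For all 3 the gap between the populations was several times the gap between mice. Sparc was higher by 2.82 ± 0.24 (adjusted p = 0.00638; 1.52 by its other probe set) and Fras1 by 2.27 ± 0.14, which is 4.83-fold (adjusted p = 0.00183).

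Smaller differences were called for Spock2, a proteoglycan also named testican-2 (1.70 ± 0.21, or 0.49 by its other probe set), for the collagen Col8a2 (1.5 ± 0.19), and for C1qtnf1, a secreted C1q and TNF related protein (1.62 ± 0.21, or 0.16 by its other probe set). Cgnl1, a junction protein also named paracingulin, was higher by 2.32 ± 0.35 (adjusted p = 0.0476), while its 4 other probe sets gave 0.13 to 1.51. Nt5e, the ectonucleotidase CD73, was higher by 1.40 ± 0.18, while its 2 other probe sets gave 1.21 and −0.18. These 5 calls were lost without at least 5 of the 8 arrays, left out singly. Of 25 tested matrix genes, 2 were called higher (Sparc and Fras1) and 0 lower, where 0.340% and 0.132% of all genes were called. Their median was 0.48. That was the highest median among the pathway lists, and 15 genes had non-overlapping arrays upward and 2 downward, where the shares over all genes were 21.2% and 22.5%. Fn1, which encodes fibronectin, had 8.39 and 7.0 in Lgr5-positive cells, against 5.48 and 5.52 in Lgr5-negative cells. The gap between the 2 Lgr5-positive arrays was wide, and Fn1 did not pass (2.20 ± 0.38, adjusted p = 0.074; 0.0461 with the mouse block). Frem2, a partner of Fras1 in the basement membrane, had 1.25 ± 0.29 (adjusted p = 0.146; 0.0391 with the mouse block).

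Among signalling genes, Il31ra, a subunit of the interleukin 31 receptor, had 6.75 and 6.83 in Lgr5-positive cells, against 5.44 and 5.34 in Lgr5-negative cells, and was higher by 1.41 ± 0.12 (adjusted p = 0.00638). Trib2, a pseudokinase that steers degradation of C/EBP factors, had 6.51 and 6.44 in Lgr5-positive cells, against 5.11 and 5.26 in Lgr5-negative cells, and was higher by 1.29 ± 0.11 (adjusted p = 0.00638). Both had gaps between populations far wider than between mice. Errfi1, a feedback inhibitor of the EGF receptor also named Mig6, was higher by 0.84 ± 0.13 (adjusted p = 0.0476), a call lost whichever array was left out. It was the only call among 22 EGFR and ERK feedback genes, whose median was 0.22, where 0.472% of all genes were called. The amino acid transporter Slc43a1 (1.81 ± 0.27), the small GTPase Rhoj (1.05 ± 0.15), the iron carrier transferrin, Trf (1.21 ± 0.18), and the kinase Tnik, an activator of Wnt target genes (1.32 ± 0.19), were also called higher (adjusted p between 0.0454 and 0.0497). The calls of Rhoj and Trf were lost whichever array was left out, that of Slc43a1 without 7 of the 8 arrays and that of Tnik without 5. Other probe sets of Tnik gave 0.98, 0.37 and 0.05.

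The Wnt lists held few calls, where 0.472% of all genes were called. Counts this small do not set a list apart from all genes. Lgr5, whose difference was set by the sort, was the only called gene of 21 Wnt targets and feedback genes. The median of that list was 0.05. Axin2, the feedback target most often used as a Wnt readout, had 7.99 and 8.46 in Lgr5-positive cells, against 7.59 and 7.93 in Lgr5-negative cells. Its lowest Lgr5-positive value stood just above the highest Lgr5-negative one, and it did not pass (0.46 ± 0.19, adjusted p = 0.391). The paralogue Lgr6 (0.82 ± 0.19, adjusted p = 0.152) and the partner of beta-catenin Lef1 (0.37 ± 0.19) did not pass either. Wif1 was the only call of 12 Wnt inhibitors, at a median of −0.07, and 0 of 29 Wnt ligands and receptors were called, at a median of 0.06, with Fzd2 (0.87 ± 0.28) and Ror2 (0.82 ± 0.22) highest. The medians of the 3 Wnt lists lay within 0.07 of 0.

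No difference in Hedgehog genes was detectable gene by gene with 2 mice. Of 19 tested, 0 were called in either direction by limma, against 0.472% of all genes, and the median was 0.20. At that share a list of 19 would rarely hold a call, so 0 calls does not set this list apart. Arrays did not overlap upward in 8 and downward in 2, where 21.2% of all genes had no overlap upward and 22.5% downward. Ptch1, receptor and target of the pathway, had 8.25 and 8.78 in Lgr5-positive cells, against 7.72 and 7.77 in Lgr5-negative cells. It did not pass (0.77 ± 0.22, adjusted p = 0.224), and its other probe set gave 0.04. The co-receptor Boc (0.75 ± 0.22, or −0.14 by its other probe set), the survival factor Bcl2 (0.80 ± 0.22) and the transcription factors Gli2 (0.49 ± 0.13) and Gli3 (0.43 ± 0.12) did not pass. The antagonist Hhip differed by 0.03. Ltbp2 was the only call of 25 BMP and TGF-beta genes (median 0.06), and 0 of 14 Notch genes were called (median −0.09), where the receptor Notch3 had −1.04 ± 0.19 (adjusted p = 0.0783). No gene of 20 embryonic follicle genes was called (median 0.13), although Alcam, an adhesion molecule, had 1.09 ± 0.18 and passed with the mouse block (adjusted p = 0.0359). Ncam1, another adhesion molecule, had 8.36 and 9.70 in Lgr5-positive cells, against 6.67 and 8.01 in Lgr5-negative cells. The 2 mice differed in level by more than 1 log2 unit while the pair difference was alike, so Ncam1 missed the threshold (1.69 ± 0.53, adjusted p = 0.27) and passed with the mouse block (adjusted p = 0.0062). Its 5 other probe sets gave 0.05 to 1.46.

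Genes of myeloid cells were also called higher in Lgr5-positive cells. Pf4, a chemokine of platelets and of tissue macrophages, had 9.02 and 8.20 in Lgr5-positive cells, against 4.82 and 4.68 in Lgr5-negative cells, where it was dim. Its difference was 3.86 ± 0.32 (adjusted p = 0.00638), at least 13.5-fold above the dim level. Ccl6, a chemokine of myeloid cells, had 8.83 and 8.17 in Lgr5-positive cells, against 5.19 and 5.34 in Lgr5-negative cells, a difference of 3.23 ± 0.21 (adjusted p = 0.00183). For both genes the groups were far apart, and both passed under all 18 alternatives run. Cxcl2, a neutrophil-attracting chemokine, had 8.81 and 7.98 in Lgr5-positive cells, against 5.21 and 5.42 in Lgr5-negative cells (3.08 ± 0.36, adjusted p = 0.0231). Ccl9, a relative of Ccl6, had 9.70 and 7.84 in Lgr5-positive cells, against 5.70 and 5.93 in Lgr5-negative cells. With mouse 1 far above mouse 2, Ccl9 did not pass (2.96 ± 0.50, adjusted p = 0.07, or 0.0477 with the mouse block). The other Ccl9 probe set gave 0.86.

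The start region of Pf4 is shown because it holds a match to a motif of PU.1, the factor that directs myeloid gene expression. The window runs from 250 bases before to 50 bases after the gene start at chr5:90772185-90772484, plus strand, from RefSeq on GRCm38.p6. Capitals mark the letters GAGGAAGT or their reverse complement ACTTCCTC, searched on both strands.

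Pf4: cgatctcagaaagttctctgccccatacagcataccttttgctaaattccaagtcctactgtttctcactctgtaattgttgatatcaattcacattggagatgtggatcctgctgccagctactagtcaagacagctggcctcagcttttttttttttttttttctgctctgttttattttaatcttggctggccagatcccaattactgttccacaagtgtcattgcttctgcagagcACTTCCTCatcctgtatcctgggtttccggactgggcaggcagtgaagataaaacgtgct

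These letters were found in 3 of 10 called myeloid genes with such a window (Pf4, F13a1 and Retnla), which is 30.0%, and in 3.69% of all 27025 genes with one. The set of 11 called myeloid genes was gathered after their values were seen, so the share is a description of these windows only.

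Macrophage receptors and enzymes followed the chemokines. Mrc1, the mannose receptor of tissue macrophages, had 7.85 and 7.40 in Lgr5-positive cells, against 5.18 and 5.33 in Lgr5-negative cells (2.37 ± 0.34, adjusted p = 0.0475). C5ar1, the receptor of complement C5a, had 7.92 and 7.93 in Lgr5-positive cells, against 5.05 and 5.95 in Lgr5-negative cells (2.42 ± 0.27, adjusted p = 0.0172). Lyz2, lysozyme of macrophages, had 11.02 and 10.93 in Lgr5-positive cells, against 8.39 and 8.45 in Lgr5-negative cells (2.56 ± 0.38, adjusted p = 0.0475, or 0.0543 with the mouse block). The only probe set of Lyz2 belongs to the class that may cross-hybridise with related transcripts. Lyz2 lay well above the dim level of 4.85 in both populations, while Mrc1 and C5ar1 lay between 5.05 and 5.95 in Lgr5-negative cells. The lysosomal protein Cd68 (2.00 ± 0.25), the lectin Clec10a (1.77 ± 0.17) and the resistin-like molecule Retnla (1.62 ± 0.20) were called higher too. F13a1, a transglutaminase subunit that was dim in both Lgr5-negative arrays, was called at least 2.22-fold higher. It entered the tests only through the vismodegib Lgr5-positive arrays, where it was high, so its call is a description. The lysosomal protease Ctsl (1.46 ± 0.15, or 0.18 by its other probe set) and the lysosomal lipase Lipa (1.09 ± 0.14, or 1.25 and 0.06 by its others), which keratinocytes also make, were called higher as well. The Lipa probe set used also belongs to the class that may cross-hybridise. Without single arrays the highest adjusted p was 0.221 for Lyz2 and 0.191 for Mrc1 (Lgr5-positive arrays of mouse 2 and mouse 1), 0.154 for Cd68 and 0.141 for Cxcl2 (both Lgr5-negative array of mouse 1), and 0.096 for C5ar1 (Lgr5-positive array of mouse 1).

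Other myeloid genes did not pass. Of 24 tested macrophage, dendritic and Langerhans cell markers, 4 were called higher (Pf4, Lyz2, Mrc1 and Cd68) and 0 lower. The shares called over all genes were 0.340% and 0.132%. Their median was 0.38 for the markers tested. Arrays did not overlap upward in 10 and downward in 5, where 21.2% of all genes had no overlap upward and 22.5% downward. Cathepsin S, Ctss, had 11.44 and 10.93 in Lgr5-positive cells, against 10.53 and 10.08 in Lgr5-negative cells. Adgre1, the macrophage antigen F4/80, had 6.57 and 6.07 in Lgr5-positive cells, against 5.06 and 5.55 in Lgr5-negative cells. Neither passed (0.88 ± 0.58 and 1.01 ± 0.23), although the arrays of the populations did not overlap. Langerin, Cd207, the defining receptor of Langerhans cells, had 5.70 and 6.05 in Lgr5-positive cells, against 6.43 and 7.31 in Lgr5-negative cells, and leaned the other way without passing (−1.0 ± 0.27, adjusted p = 0.215). The class II chaperone Cd74 (−0.49 ± 0.33) and the class II gene H2-Aa (−0.60 ± 0.73) did not pass, and the cytokine gene Il1b had −1.24 ± 0.34 (adjusted p = 0.211).

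The summed signal of the 25 marker genes read, on the linear scale, was 17328 in Lgr5-positive cells and 13487 in Lgr5-negative cells of vismodegib mouse 1, and 13437 in Lgr5-positive cells and 11020 in Lgr5-negative cells of mouse 2. It was higher in Lgr5-positive cells within each mouse, though the ranges of the groups overlapped. Their mean log2 signal was 8.41 and 7.99 in Lgr5-positive arrays, against 7.72 and 7.57 in Lgr5-negative arrays, with no overlap. In untreated mice the summed signal ranged from 2210 to 2425 in Lgr5-positive arrays and from 5977 to 7444 in Lgr5-negative arrays. After vismodegib, 0 and 1 of the 25 markers were dim in the Lgr5-positive arrays (Itgam, in mouse 2) and 2 in each Lgr5-negative array (Itgam and Pf4). The part of this marker signal in the other differences between the populations was not tested. T cell (11 tested), mast cell and neutrophil (7), fibroblast (6), endothelial (12), melanocyte (8), Merkel cell (7) and adipocyte, muscle and blood markers (7) had 0 calls each by limma, with medians between −0.08 and 0.16. The melanocyte regulator Mitf, which macrophages also express, had 0.98 ± 0.23 (adjusted p = 0.159).

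**Figure D3:**
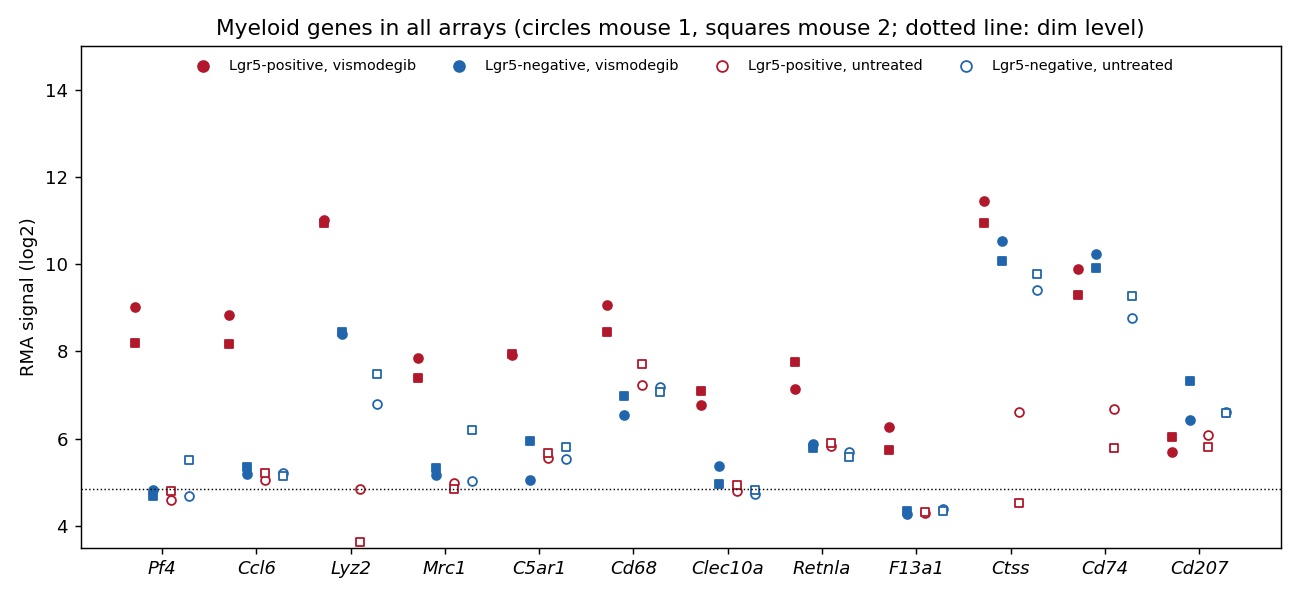
Log2 signal of 12 myeloid genes in all 8 arrays, with circles for mouse 1 and squares for mouse 2, and for each gene the vismodegib Lgr5-positive, vismodegib Lgr5-negative, untreated Lgr5-positive and untreated Lgr5-negative arrays from left to right. From Pf4 to F13a1 the filled red points of vismodegib Lgr5-positive cells stand above the other groups, for Ctss by under 1 log2 unit over the filled blue points, while Cd74 and Cd207 are lower in them than in vismodegib Lgr5-negative cells.

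Genes of cell division made up part of the 19 lower calls. Kif11, the kinesin that pushes spindle poles apart, had 6.79 and 7.06 in Lgr5-positive cells, against 8.47 and 8.05 in Lgr5-negative cells (−1.34 ± 0.20, adjusted p = 0.0475; −0.79 by its other probe set). Espl1, the protease separase that releases sister chromatids, had 6.07 and 6.22 in Lgr5-positive cells, against 7.75 and 7.21 in Lgr5-negative cells (−1.33 ± 0.19, adjusted p = 0.0475). Stil, a factor of centriole duplication, had 5.61 and 5.75 in Lgr5-positive cells, against 7.14 and 6.68 in Lgr5-negative cells (−1.23 ± 0.18, adjusted p = 0.0475). Each was lower in both mice with no overlap, more so in mouse 1. The call of Espl1 was lost without 7 of the 8 arrays, left out singly, and those of Kif11 and Stil without 5, with the highest adjusted p between 0.191 and 0.199.

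Of 29 tested mitosis genes, 28 lay below 0, but Kif11 was the only call and 0 were called higher. Over all genes 0.132% were called lower and 0.340% higher. The median of the mitosis genes was −0.83, the lowest of the pathway lists, and −0.98 in mouse 1 and −0.58 in mouse 2. Arrays did not overlap downward in 26 of the 29 and upward in 0, where 22.5% of all genes had no overlap downward. The spindle checkpoint kinase Bub1 had 4.68 and 4.86 in Lgr5-positive cells, against 6.26 and 5.68 in Lgr5-negative cells, and did not pass (−1.21 ± 0.20, adjusted p = 0.07). Cyclin A2, Ccna2, had 8.21 and 8.62 in Lgr5-positive cells, against 9.73 and 9.32 in Lgr5-negative cells (−1.11 ± 0.25, adjusted p = 0.144, with −0.67 by its other probe set). Anln, a scaffold of the cytokinetic ring, had 5.90 and 5.91 in Lgr5-positive cells, against 7.39 and 6.81 in Lgr5-negative cells (−1.19 ± 0.28, adjusted p = 0.163; 0.0476 with the mouse block; 0.07 by its other probe set, which was dim in 3 of the 4 arrays). These 3 genes were lower in both mice with no overlap and did not pass gene by gene. Of 27 DNA replication genes, 26 lay below 0 with a median of −0.40 and 0 calls in either direction. The helicase subunit Mcm5 had −0.86 ± 0.14 (adjusted p = 0.0631), and Pole, a DNA polymerase catalytic subunit, had −1.22 ± 0.29 (adjusted p = 0.163; 0.0191 with the mouse block).

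Start regions of Kif11 and Anln are shown because they hold letters that match the cell cycle genes homology region. Through that element the DREAM complex represses genes of mitosis in resting cells. Capitals mark the letters TTTGAA or their reverse complement TTCAAA, searched on both strands in windows from 250 bases before to 50 bases after the start, from RefSeq on GRCm38.p6. Kif11 lies at chr19:37376132-37376431 on the plus strand and Anln at chr9:22389157-22389456 on the minus strand.

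Kif11: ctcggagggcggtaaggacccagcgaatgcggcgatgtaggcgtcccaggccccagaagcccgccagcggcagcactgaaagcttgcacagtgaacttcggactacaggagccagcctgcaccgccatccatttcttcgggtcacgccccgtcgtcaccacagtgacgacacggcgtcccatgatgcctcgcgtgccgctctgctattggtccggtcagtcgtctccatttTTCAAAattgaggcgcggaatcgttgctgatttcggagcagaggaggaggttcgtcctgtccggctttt

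Anln: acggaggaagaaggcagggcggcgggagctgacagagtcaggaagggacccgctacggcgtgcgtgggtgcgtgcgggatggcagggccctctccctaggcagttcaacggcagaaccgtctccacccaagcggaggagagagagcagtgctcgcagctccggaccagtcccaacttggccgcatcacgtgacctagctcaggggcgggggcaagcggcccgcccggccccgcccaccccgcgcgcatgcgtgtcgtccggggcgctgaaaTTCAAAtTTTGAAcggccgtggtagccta

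Kif11 held 1 match, which began at −19 from the start, and Anln held 2. The letters were found in 20 of 25 mitosis genes with a window (80.0%) and in 20.2% of all 27025 genes with one. A match describes these letters and shows neither a working element nor a bound site.

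Cell cycle inhibitor and quiescence genes, the counterpart to the mitosis list, had 0 calls among 21 and a median of −0.0046. The p53-induced Trp53inp1 had 10.37 and 10.72 in Lgr5-positive cells, against 9.62 and 9.44 in Lgr5-negative cells (1.01 ± 0.28, adjusted p = 0.219). Txnip, a thioredoxin-binding protein, had 11.66 and 12.29 in Lgr5-positive cells, against 10.80 and 11.40 in Lgr5-negative cells (0.88 ± 0.25, adjusted p = 0.225; 0.0476 with the mouse block). The cyclin-dependent kinase inhibitors Cdkn1a (0.07), Cdkn1b (0.05) and Cdkn1c (−0.24) lay close to 0. Immediate early genes also lay close to 0, with a median of −0.04 over 23 genes, 0 calls and a range from −0.30 to 0.32.

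Interfollicular differentiation genes leaned lower in Lgr5-positive cells without passing. Of 23 tested, 22 lay below 0, 18 had no overlap downward (22.5% of all genes) and 0 upward, the median was −0.72, and 0 were called in either direction. The suprabasal keratin gene Krt77 had 10.66 and 9.74 in Lgr5-positive cells, against 11.64 and 11.55 in Lgr5-negative cells (−1.40 ± 0.41, adjusted p = 0.24). Grhl3, a transcription factor of barrier formation, had 7.97 and 7.79 in Lgr5-positive cells, against 9.36 and 8.54 in Lgr5-negative cells (−1.07 ± 0.25, adjusted p = 0.157). Their arrays did not overlap, but the spread within a group was wide. Basal keratinocyte genes leaned the other way, with 14 of 15 above 0, a median of 0.31, 9 with no overlap upward (21.2% of all genes) and 0 calls. The integrin Itgb1 was the highest of them at 0.48 ± 0.14.

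**Figure D4:**
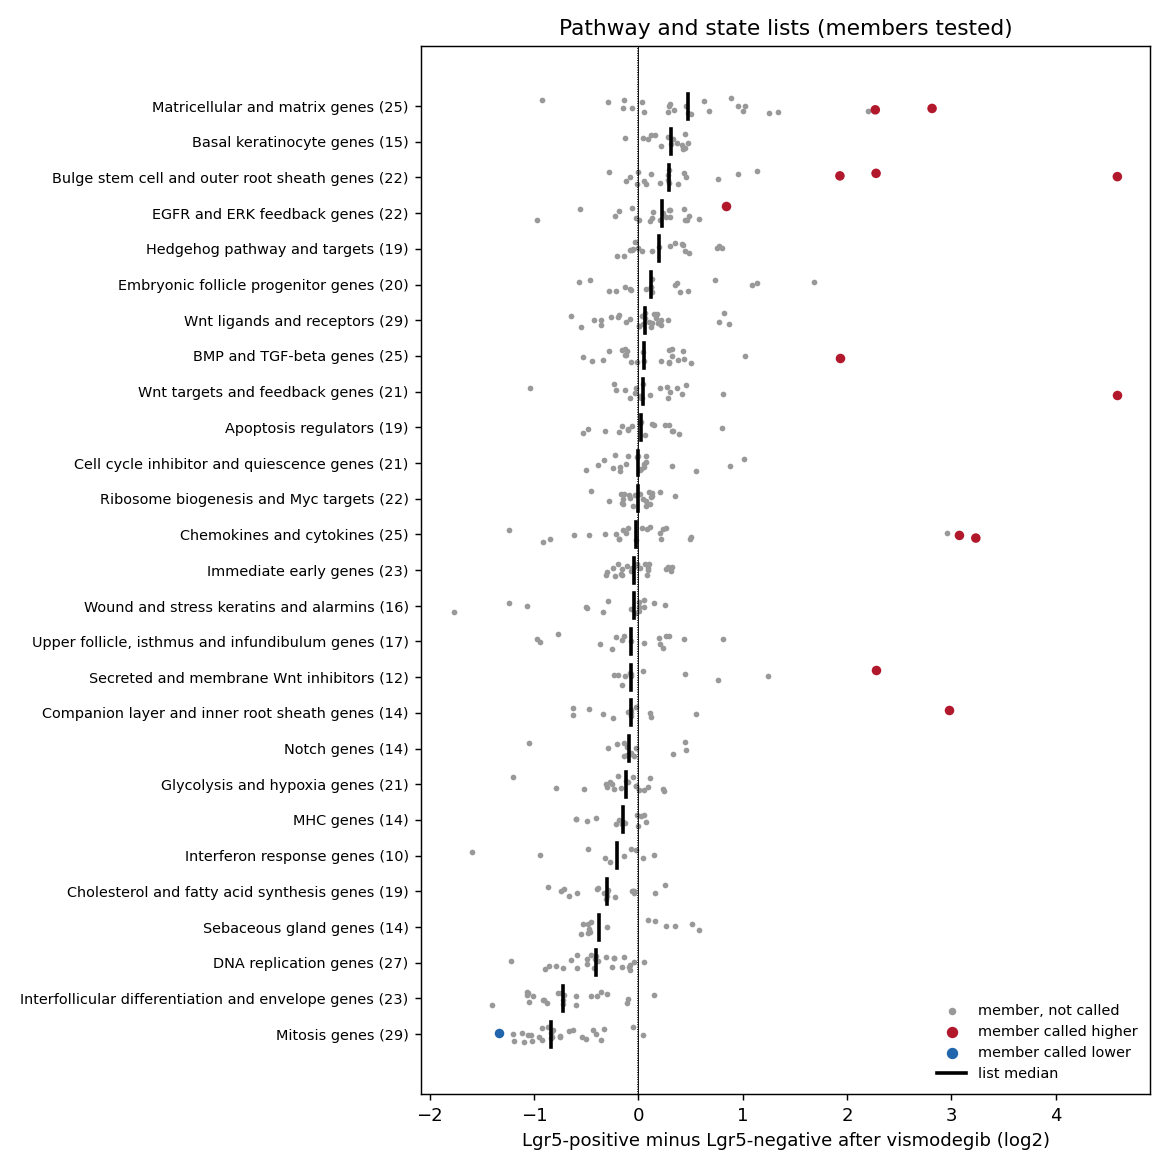
Each row is a pathway or state list with the number of members tested, each point a member's Lgr5-positive minus Lgr5-negative difference after vismodegib (log2), and each bar the list median, with called members in red (higher) or blue (lower). Matrix genes have the highest median at 0.48 and mitosis genes the lowest at −0.83, and most members of every list are not called.

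The lower genes outside these lists were led by Il1r2, a decoy receptor that captures interleukin 1. Il1r2 had 6.13 and 6.27 in Lgr5-positive cells, against 8.29 and 8.23 in Lgr5-negative cells, a difference of −2.07 ± 0.13, which is 4.19-fold lower (adjusted p = 0.00183). Slc6a20a, a proline transporter, had 5.00 and 4.80 in Lgr5-positive cells, against 6.57 and 6.34 in Lgr5-negative cells (−1.55 ± 0.15, adjusted p = 0.0105). Dnase1l3, a secreted DNase, had 5.97 and 5.95 in Lgr5-positive cells, against 7.63 and 7.34 in Lgr5-negative cells (−1.52 ± 0.13, adjusted p = 0.0067; −0.76 by its other probe set). The 3 genes were lower in both mice by similar amounts, with no overlap. Fbn2, a fibrillin of elastic microfibrils (−1.34 ± 0.18), Sdr16c5, a retinol dehydrogenase (−1.24 ± 0.18), Slc12a2, the sodium, potassium and chloride cotransporter NKCC1 (−1.21 ± 0.14), and Krt4, a keratin of mucosal epithelia (−1.07 ± 0.15), were called lower. Pygl, glycogen phosphorylase of liver type (−1.11 ± 0.16), the aspartyl protease Bace2 (−1.11 ± 0.16, or −0.25 and −0.34 by its other probe sets), Chst15, a sulfotransferase (−1.03 ± 0.12), and Itpkb, an inositol phosphate kinase (−0.95 ± 0.12), were called lower as well. The call of Sdr16c5 was lost with the mouse block (adjusted p = 0.0586). Left out singly, 7 of the 8 arrays ended the calls of Sdr16c5, Pygl and Bace2, 6 those of Krt4 and Itpkb, 5 those of Slc12a2 and Chst15, and 4 that of Fbn2.

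Metabolic and interferon lists had 0 calls. Cholesterol and fatty acid synthesis genes had 17 of 19 below 0, 13 with no overlap downward (22.5% of all genes) and a median of −0.30, with the sterol reductase Dhcr7 at −0.87 ± 0.16 (adjusted p = 0.0848) and the squalene epoxidase Sqle at −0.72 ± 0.14 (adjusted p = 0.0951). Glycolysis and hypoxia genes had a median of −0.12, interferon response genes −0.20 and MHC genes −0.15. The interferon-induced chemokine Cxcl9 had 5.84 and 6.74 in Lgr5-positive cells, against 8.17 and 7.61 in Lgr5-negative cells, and did not pass (−1.59 ± 0.31, adjusted p = 0.0939). Upper follicle genes had a median of −0.07 over 17 genes with 0 calls.

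The same comparison in untreated mice showed which of these differences were also present without the drug. There, 2466 genes were called (17.1%), 895 higher and 1571 lower in Lgr5-positive cells (6.21% and 10.9%), and the SD of the population difference over genes was 0.319 after vismodegib and 0.559 in untreated mice. The untreated count was 582 without the Lgr5-negative array of mouse 2 and 1034 without that of mouse 1. Of the 68 genes called after vismodegib, 37 were called the same way in untreated mice, which is 54.4% of the 68 and 1.5% of the 2466, 57 had the same sign and 3 were called the opposite way. The population differences of the treatments correlated across genes at r = 0.439, and those of vismodegib mouse 1 and mouse 2 at r = 0.472, where genes are not independent replicates.

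The difference of the population differences was tested in the same model and called 202 genes (1.40%), 143 positive (0.993%) and 59 negative. This count moved strongly with single arrays. It was 2 without the Lgr5-positive array of vismodegib mouse 1 and 79 without that of mouse 2, 109 without the Lgr5-negative array of vismodegib mouse 2, 66 without the untreated Lgr5-negative array of mouse 1 and 8 without that of mouse 2. Of the 68 genes, 13 had a called difference between treatments. Of the 49 higher genes, 24 were called higher in untreated mice and 12 had a called positive difference between treatments, and of the 19 lower genes 13 were called lower in untreated mice.

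Most of the follicle, matrix and cell division genes called after vismodegib were also called the same way in untreated mice, with Espl1 (−0.46, adjusted p = 0.15) and Nt5e (0.52, adjusted p = 0.0931) among the exceptions. Fras1 differed by 2.27 after vismodegib and by 2.31 in untreated mice, where its levels were 10.27 and 9.95 in Lgr5-positive cells, against 7.88 and 7.72 in Lgr5-negative cells. Its difference between treatments was −0.04 ± 0.20. Krtap17-1 (0.28 ± 0.36), Ltbp2 (0.26 ± 0.29), Spock2 (−0.04 ± 0.29), Kif11 (−0.02 ± 0.28) and Il1r2 (0.36 ± 0.18) had differences between treatments that did not pass. Krt75 (1.16 ± 0.35) and Abi3bp (1.43 ± 0.49) did not pass, Sparc was at an adjusted p of 0.0506 (1.84 ± 0.34), and Lgr5, the sort gene, was called (2.06 ± 0.35). A difference that misses the threshold does not show that the treatments were alike, and with 2 mice a group the standard errors here are wide.

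Several myeloid genes had a called difference between treatments. Nearly all calls of such a difference were lost without the Lgr5-positive array of vismodegib mouse 1, so most of those below depend on that array. Pf4 had 4.59 and 4.80 in untreated Lgr5-positive cells, against 4.68 and 5.50 in untreated Lgr5-negative cells, and its difference between treatments was 4.26 ± 0.46 (adjusted p = 0.0142). Ccl6 had 5.04 and 5.22 in untreated Lgr5-positive cells, against 5.22 and 5.15 in untreated Lgr5-negative cells, with a difference between treatments of 3.29 ± 0.29 (adjusted p = 0.0112). Both lay at or below 5.50 in all untreated arrays. Lyz2 and Cxcl2 were called higher after vismodegib and lower in untreated mice, by −2.89 and −1.96, with differences between treatments of 5.44 ± 0.53 and 5.03 ± 0.51 (adjusted p = 0.0112 each). Mrc1 (3.07 ± 0.49), C5ar1 (2.48 ± 0.38), Clec10a (1.69 ± 0.24) and Ms4a7 (1.56 ± 0.28) were called too, while Cd68 (1.67 ± 0.36) and Retnla (1.40 ± 0.28) were not. F13a1 was also called, but it was dim in every array outside the vismodegib Lgr5-positive ones and entered the tests only through them. Of the 24 macrophage markers tested, 7 had a called positive difference between treatments and 0 a negative one, where the shares over all genes were 0.993% and 0.410%.

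Over all genes, 0.993% had a called positive difference between treatments and 0.410% a called negative one. Nearly all of those calls were lost without the Lgr5-positive array of vismodegib mouse 1. Among the lists, the mitosis median was −0.83 after vismodegib and −1.37 in untreated mice, with 0 of 29 differences between treatments called. The interfollicular differentiation median was −0.72 after vismodegib and −1.52 in untreated mice, with 3 of 23 called positive. Wound keratins and alarmins stood at −0.04 after vismodegib and −2.10 in untreated mice, with 4 of 16 called positive. The bulge list stood at 0.29 after vismodegib and 1.22 in untreated mice, with 1 called positive (Lgr5) and 3 negative, and the Hedgehog list at 0.20 and 0.70 with 0 called. On each of these lists the median after vismodegib was nearer 0 than in untreated mice, and the SD over all genes was smaller too. Other lists did not follow this. Sebaceous gland genes stood at −0.38 after vismodegib and −0.05 in untreated mice, and cholesterol and fatty acid synthesis genes at −0.30 and −0.15. MHC genes stood at −0.15 and −0.06, interferon response genes at −0.20 and 0.11, and basal keratinocyte genes at 0.31 under both.

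**Figure D5:**
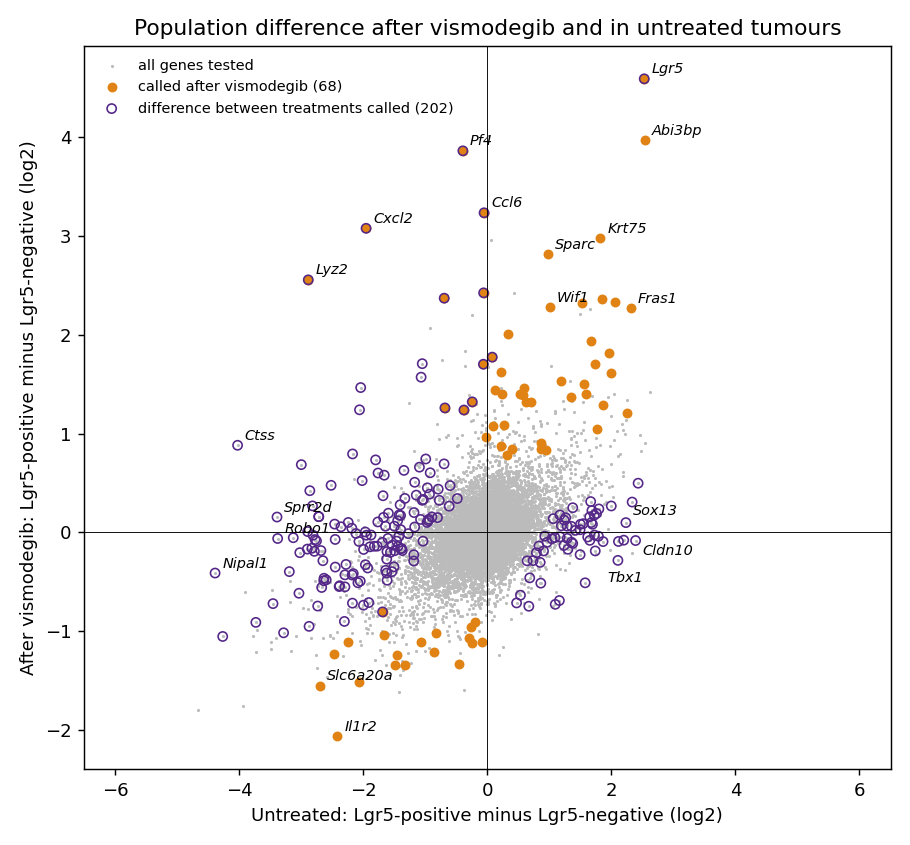
Each point is a gene, with the Lgr5-positive minus Lgr5-negative difference (log2) in untreated mice on the x axis and after vismodegib on the y axis, orange for the 68 genes called after vismodegib and open circles for the 202 genes whose difference between treatments was called. Lgr5, Abi3bp, Krt75 and Fras1 lie at the upper right, Il1r2 and Slc6a20a at the lower left, and Pf4, Ccl6, Cxcl2 and Lyz2 at the top near or left of 0 on the x axis.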

How the data were processed

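The authors deposited log2 expression values per probe set on Affymetrix arrays, summarised with RMA per the submitters' processing notes, which give no version. Precision is limited by the number of arrays. Of 45141 probe sets, 104 controls were left out, and of the rest 28898 had 1 gene symbol, 551 several and 15588 none. The 28898 gave 17097 genes, and each of the 7180 genes with more than 1 probe set was read by the one with the highest mean over the 8 arrays. A gene entered the tests when 2 or more arrays read it over 4.85, the 25th percentile of the deposited values. This kept 14403 genes and left out 2694 as dim.

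Group means of the 4 populations were fitted to all 8 arrays with limma 3.58.1 (lmFit and eBayes) in R 4.3.3, with Benjamini-Hochberg adjustment over all genes tested and a threshold of 0.05. The fit was tested on simulated data. Lists and figures were made with Python 3.11.15. Titles give both arrays of a mouse the same number, and deviations from the group means of same-mouse arrays correlated at 0.211 in vismodegib mice and 0.142 in untreated mice, so the mouse was used as a block in an alternative. Other alternatives were another filter, no filter, the mean of the probe sets, cyclic loess, an intensity trend, array weights, a random mouse block, only 4 arrays, and each array left out. Over all 8 arrays, 3′ minus 5′ differences of control probe sets ran from −0.23 to 0.01 for Gapdh and from −0.58 to −0.34 for actin.

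Named genes are the sort and model checks, up to 20 called genes a direction by size, up to 6 members of each of 35 lists by absolute difference, and up to 10 genes a direction from the difference between treatments. Genes named outside this rule (Foxp1, Il31ra, Trib2, Tnik, Trf, Rhoj, Col8a2, C1qtnf1, Nt5e, Ctsl, Lipa, F13a1, Retnla, Ms4a7, Sox9, Nfatc1, Krt15, Hhip, Cdkn1a, Cdkn1b and Cdkn1c) were chosen after their values were seen. The comparison, the members and the lists were chosen with earlier results of these data known. Promoter windows are from RefSeq. With 2 mice per group, p-values rest on a spread within groups that limma pools over all groups, untreated ones included, and over genes. They do not measure the spread between the 2 vismodegib mice alone.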

Additional observations from a re-analysis of the deposited data

Results flagged for a closer look

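For 30 genes the population difference itself differed between vismodegib and untreated mice in limma's test of the difference (adjusted p under 0.05), and the value given first is the vismodegib difference minus the untreated one on the log2 scale. These are the called genes with such a difference and the genes with the largest such differences, and the test rests on 2 mice per group. Most of these calls were lost without the Lgr5-positive array of vismodegib mouse 1.

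Among the genes described above, the value was 5.44 for Lyz2, 5.03 for Cxcl2, 4.26 for Pf4, 3.29 for Ccl6, 3.07 for Mrc1, 2.48 for C5ar1, 2.06 for Lgr5, 1.77 for F13a1, which was dim in every other group, 1.69 for Clec10a and 1.56 for Ms4a7. It was 1.94 for Tent5b, an RNA nucleotidyltransferase, 1.62 for Lmo7, a junction and actin adaptor, and 0.88 for Slc22a23, an orphan transporter. The population difference of Lmo7 after vismodegib was 1.24, and 0.49 by its other probe set.

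In other genes the vismodegib difference was near 0 or not called while the untreated one was large. The value was 4.91 for Ctss (0.88 after vismodegib, −4.03 in untreated mice), 3.98 for Nipal1, a magnesium transporter (−0.41 and −4.39), 3.68 for F3, tissue factor (0.69 and −3.0), 3.55 for Sprr2d, an envelope precursor (0.15 and −3.39), and 3.32 for Robo1, a Slit receptor (−0.06 and −3.38). It was 3.51 for the serine protease Prss23 (1.47 after vismodegib, −2.04 in untreated mice) and 3.3 for Inhba, an activin subunit (1.24 and −2.06). After vismodegib the other probe set of Nipal1 gave −1.13, and those of Prss23 gave 0.39 and 0.69. That of Inhba, dim in all 4 vismodegib arrays, gave 0.07. The Prss23 probe set used is of the class that may cross-hybridise.

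Negative values marked genes that were higher in Lgr5-positive cells of untreated mice and not called after vismodegib. Myrip and Efemp1 were dim in all 4 vismodegib arrays and Cldn10 in 3 of them, so their differences after vismodegib compare signals at background and the values below have no exact size. Efemp1 entered the tests only through the untreated Lgr5-positive arrays, where it was high, so its call is a description. The value was −2.47 for the claudin Cldn10 (−0.08 after vismodegib, 2.39 in untreated mice), −2.39 for Tbx1, a T-box factor of the bulge (−0.28 and 2.10), −2.28 for Myrip (−0.08 and 2.20) and −2.21 for Adamtsl1 (−0.09 and 2.11). It was −2.14 for the transcription factor Sox13 (0.10 after vismodegib, 2.23 in untreated mice), −2.09 for Aff3 (−0.51 and 1.58), −2.03 for Spry4, a receptor tyrosine kinase inhibitor (0.31 and 2.33), −1.96 for the chemokine Cxcl12 (−0.09 and 1.87), −1.93 for Efemp1, a fibulin (−0.19 and 1.74), and −1.93 for Mia (0.50 and 2.43).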

How the results depend on the processing

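The count of 68 genes after vismodegib was 36 with no filter on dim genes, 11 with only the 4 vismodegib arrays and 15 with those arrays and the mouse as a replicate block. With the block on all 8 arrays it was 105, with 55 of the 68 among them. It ranged from 18 to 107 when each array was left out in turn, the untreated count of 2466 from 582 to 2852, and the count of 202 for the difference between treatments from 2 to 251. The block gave 300 for that difference and no filter 148. With the other settings tried, the 68 became 48 to 83. Of single gene and list values under the alternatives, 2725 held. A gene value held when it kept its direction and side of the threshold. A list median held when it shifted by no more than the spread between replicates, whatever its sign. Among gene values, 672 kept only their direction and lost the call, 38 gained a call and 4 changed sign. Among list medians, 74 shifted by more than that spread. When each array was left out in turn, Gli1 ranged from −0.15 to 0.037, H2-Aa from −1.38 to 0.18, Lrig1 from −0.012 to 0.43 and Krt14 from −0.025 to 0.12. Signs changed without the Lgr5-negative array of vismodegib mouse 1, or for Krt14 without the Lgr5-positive array of mouse 2. None of these 4 was called. Leaving out an array also leaves fewer samples, and the cause of the shifts under any alternative was not tested. The block ended 13 of the 68 calls, among them Foxp1, Lyz2, Ms4a7, Sdr16c5 and Slc22a23. Signals near the dim level limit fold changes to bounds, as for Pf4, Krt75 and F13a1.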
